A study of Drosophila melanogaster with 12 samples.

Results

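The Pao and Copia superfamilies of long terminal repeat (LTR) retrotransposons were followed in chromatin immunoprecipitation sequencing (ChIP-seq) counts from Drosophila ovaries depleted of the acetyltransferase Enok. The elements were the rows of the transposon tables whose class field begins with LTR and whose superfamily field is not Gypsy, without the roo rows, and with a mean of at least 10 counts over the 8 H3 and H3K23ac libraries. This gave 24 of the 203 transposon elements that passed the same minimum. There were 15 Pao rows (the families BATUMI, BEL, DIVER, DIVER2, MAX, NINJA, ROOA and TRAM), 8 Copia rows (Copia, Copia2, DM1731 and FROGGER) and T412LTR, whose superfamily field reads LTR. T412LTR is by its name the LTR of the element listed as DM412, a row that is labelled Gypsy and was not a member. A further row met the naming rule, TRAM_LTR, but it had 0 counts in each of the 8 libraries and was not tested. Of the 24 elements, 12 were internal parts and 12 were LTR parts, and 11 families had both.

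An LTR retrotransposon moves through an RNA copy that is reverse transcribed and inserted elsewhere in the genome. Its internal part encodes the Gag and Pol proteins, and the LTRs that flank it hold the sites where transcription starts and ends. In Copia elements the integrase is encoded ahead of the reverse transcriptase, whereas in Pao elements, as in Gypsy elements, it follows. In the fly ovary such elements are silenced by piRNAs and by repressive chromatin. Acetylation of histone H3 at lysine 23 (H3K23ac) is associated with transcribed genes, and Enok is the enzyme of the MYST family that places it in the ovary.

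Ovaries of adult females 2 to 3 days old were compared between a control knockdown (GFP_KD, P{VALIUM20-EGFP.shRNA.1}attP2) and an enok knockdown (enok_KD, P{TRiP.HMS02634}attP2). All females also carried tj-GAL4, which is active in somatic follicle cells, together with a GAL4::VP16 driver under nos control, which is active in the germline. The labels give RNAi at 29 °C for 2 to 3 days, a setting that the study's methods state for another driver set, MTD-Gal4. Each knockdown had 2 replicates of pooled ovaries with an H3 and an H3K23ac library each. The whole ovary was used, so the share of each cell type and the mark carried by each nucleus cannot be told apart.

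The reads assigned to all transposon elements numbered 411139 to 628808 per H3 library and 199303 to 370429 per H3K23ac library. The tables held no gene rows, so neither the depletion of enok nor ovary marker genes could be checked with them. Counts were scaled by the trimmed mean of M values (TMM), which sets the typical transposon element to no difference between libraries. A loss or gain shared by most transposons is therefore not visible, and every value below is relative to the typical element. This reference is a trimmed mean, so the median of all elements need not be 0, and it was 0.14 for the log2 ratio of H3K23ac to H3 in GFP_KD. Only reads with a single position in the genome were kept by the authors, so identical stretches of copies contributed none.

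The 24 elements held less of the H3K23ac libraries than of the H3 libraries. They took 10.5% of the transposon reads in both GFP_KD H3 replicates, and 10.1% and 8.76% in enok_KD replicates 1 and 2. In H3K23ac they took 6.46% and 6.26% in GFP_KD and 6.21% and 5.49% in enok_KD. All 4 H3K23ac shares lay below all 4 H3 shares. These shares use no scaling beyond the total of each library.

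Most Pao elements carried little H3K23ac for the H3 at the same element, while the Copia superfamily was spread to both sides of the typical element. In GFP_KD, the ratio of H3K23ac to H3 was lower than at the typical element for 13 members and higher for 5, by edgeR's quasi-likelihood test at an adjusted p under 0.05. Over all 203 elements 32.5% were lower and 36% were higher, 68.5% in all. The median log2 ratio was -0.51 over the 24 members and 0.14 over all elements. Among the 15 Pao rows 10 were lower and 1 was higher, with a median of -0.86. Among the 8 Copia rows 3 were lower and 3 higher, with a median of 0.02. For reference, the median was -0.12 over the 92 Gypsy rows, -0.39 over LINE rows and 0.84 over DNA transposon rows.

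The lowest ratios among the members belonged to internal parts of Pao elements. NINJA_I, the coding part of a family first described in Drosophila simulans, had 6186 and 7413 H3 counts but 815 and 612 H3K23ac counts in the GFP_KD replicates. Its log2 ratios were -2.31 and -2.41, the fitted value was -2.36 ± 0.26 (SE of the fit, adjusted p = 1.0e-04), and only 2 of the 203 elements lay lower. BATUMI_I had 8256 and 9594 H3 counts against 1494 and 1178 H3K23ac counts, with log2 ratios of -1.85 and -1.84. Its fitted value of -1.85 ± 0.18 was the seventh from the bottom of all elements. For both elements the replicates lay far closer to one another than to the typical element. TRAM_I came out at -1.55 ± 0.47 (adjusted p = 0.016) but rested on 22 and 22 H3 counts and on 7 and 1 H3K23ac counts, and without GFP_KD replicate 2 its adjusted p was 0.152.

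The highest ratios belonged to the Copia family and to T412LTR. Copia_I had 2525 and 2435 H3 counts and 3613 and 3057 H3K23ac counts in GFP_KD, so that its log2 ratios were 1.13 and 1.51. The fitted value was 1.32 ± 0.22 (adjusted p = 7.5e-04), 18th from the top of the 203 elements. Copia_LTR had 204 and 176 H3 counts with 252 and 233 H3K23ac counts, and a fitted value of 1.24 ± 0.22 (adjusted p = 0.0011). Both parts of Copia thus lay on the same side, although the replicates of Copia_LTR, at 0.92 and 1.59, were further apart than those of most members. T412LTR had 262 and 325 H3 counts and 308 and 316 H3K23ac counts, with log2 ratios of 0.85 and 1.15 and a fitted value of 1.00 ± 0.18 (adjusted p = 0.0011). The DM412 row, by its name of the same element, gave 0.99 ± 0.13. Without GFP_KD replicate 2 the values for Copia_LTR and T412LTR were 0.92 and 0.85 and were not called (adjusted p = 0.066 and 0.071).

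The side on which an element fell depended on the scaling, while the order of the elements within a replicate does not. With factors taken from the piRNA cluster tables in place of the transposon tables, the median of all elements moved up by 0.79 and the members split into 11 higher and 3 lower in GFP_KD, against 63.1% and 12.8% of all elements, with NINJA_I at -1.57, BATUMI_I at -1.06 and DIVER2_I at -0.70 still lower. Without GFP_KD replicate 1 the members called numbered 10, against 39.9% of all elements, and without GFP_KD replicate 2 they numbered 6, against 31%.

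**Figure D1:**
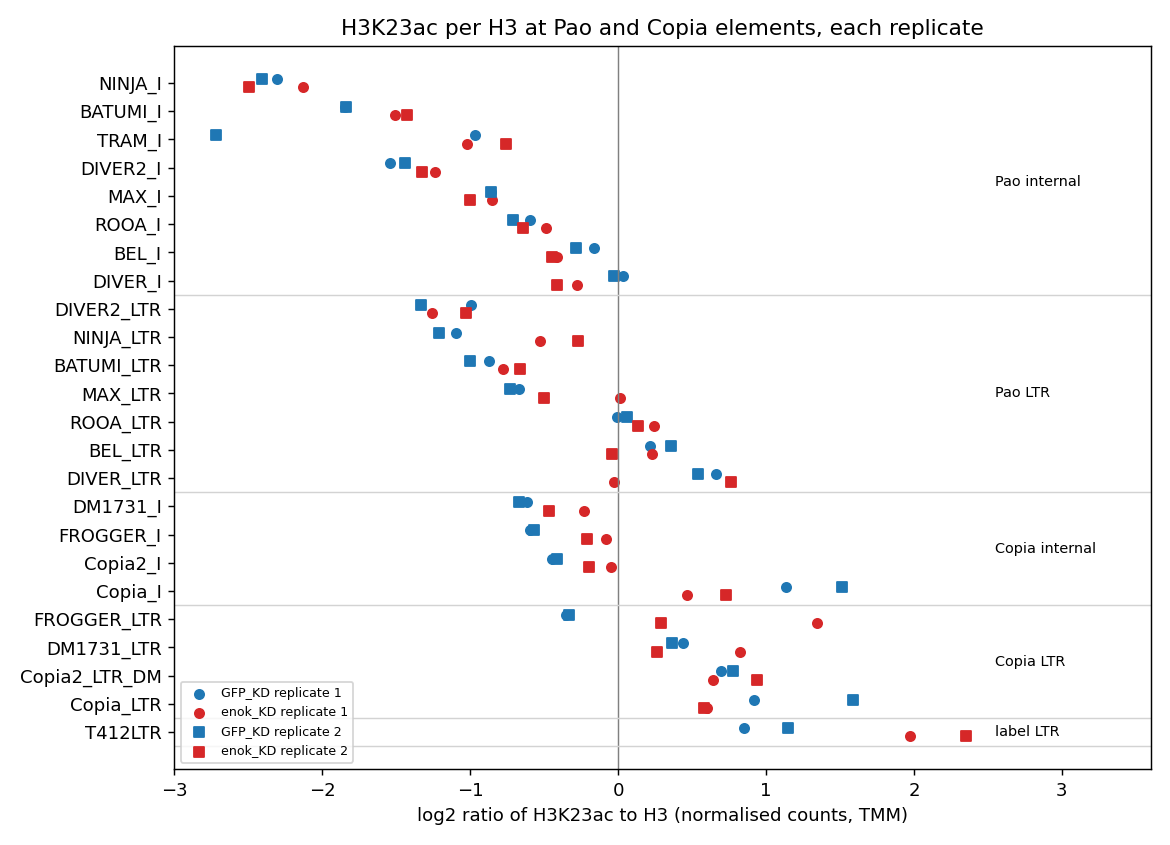
Log2 ratio of H3K23ac to H3 (TMM-normalised counts, x axis) for each of the 24 elements (rows), grouped by superfamily and part. Each point is 1 replicate, blue for GFP_KD and red for enok_KD. The line at 0 marks the TMM reference, while the median of all elements lay at 0.14 in GFP_KD. NINJA_I lies at -2.31 and -2.41 in GFP_KD, and the points of T412LTR lie at 0.85 and 1.15 in GFP_KD and at 1.97 and 2.35 in enok_KD.

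Within a family the internal part carried less H3K23ac per H3 than the LTR. This comparison is made inside each library, so no scaling between libraries enters it. Only reads with a single position were kept, so both rows of a family need not describe the same insertions. In GFP_KD the internal part was lower in both replicates for 10 of the 11 families, which were all 7 Pao families and 3 of the 4 Copia families. The median difference of the log2 ratios, internal minus LTR, was -0.59 over the 11 families. The same difference over 40 Gypsy families had a median of -0.074, and the internal part was lower in both replicates for 18 of them. No test was run between the Gypsy and the other families.

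NINJA showed the widest gap of the Pao families, with differences of -1.22 and -1.20 in the GFP_KD replicates. The log2 ratio of internal to LTR counts was 4.90 and 4.98 in H3 but 3.68 and 3.78 in H3K23ac. BATUMI followed among the Pao families at -0.98 and -0.84, and ROOA, a family close to roo, lay at -0.59 and -0.77. Among Copia families, Copia2 gave -1.14 and -1.19 and DM1731 gave -1.05 and -1.04. The Copia family was the exception, with 0.21 and -0.08, so its internal part and LTR did not differ beyond the spread of the replicates.

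In enok_KD the internal part was lower in both replicates for 9 of the 11 families, and the median difference was -0.75. DIVER2 was the family added to Copia as an exception, at 0.02 and -0.29. The change of the difference between knockdowns had a median of -0.049, below 0 in 7 families and above 0 in 4. For the 40 Gypsy families the median difference in enok_KD was -0.39, the internal part was lower in both replicates for 21, and the median change was -0.26. The gap was wider in enok_KD by 0.65 for NINJA, by 0.68 for FROGGER and by 0.55 for MAX on the log2 scale, but the FROGGER value rests on 7 to 22 LTR counts per library. The enok_KD replicates lay further apart than those of GFP_KD, as for DIVER at -0.26 and -1.18 against -0.63 and -0.57.

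**Figure D2:**
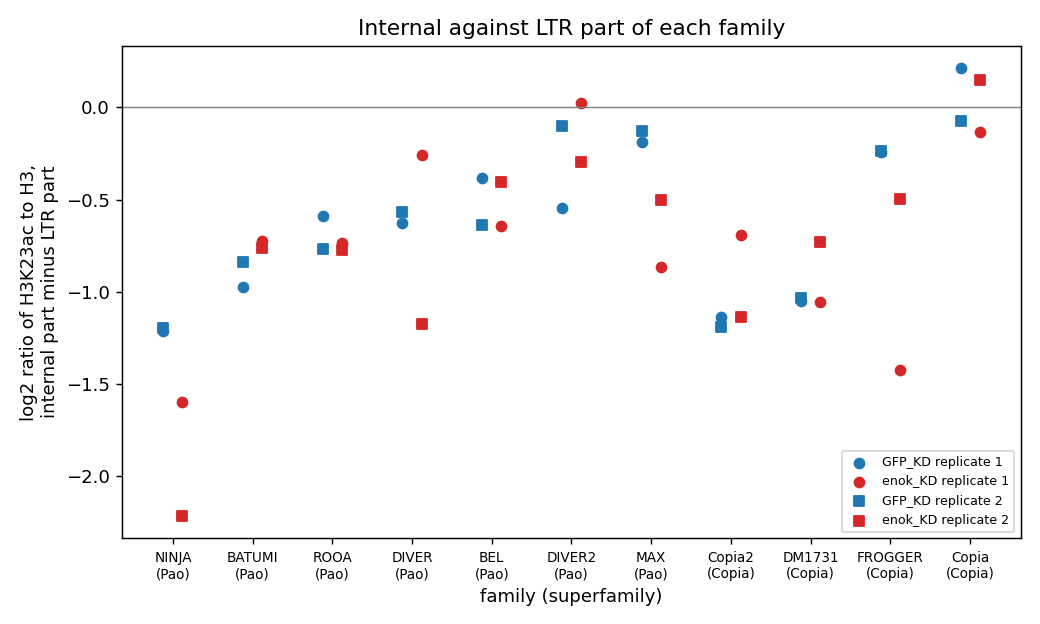
Difference of the log2 ratio of H3K23ac to H3 between the internal part and the LTR part (y axis) for the 11 families with both parts (x axis), Pao families on the left and Copia families on the right. Each point is 1 replicate, blue for GFP_KD and red for enok_KD. All points of 9 families lie below 0, and those of Copia and DIVER2 reach above it.

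In enok_KD, NINJA_I was again the lowest member and T412LTR was the highest. There 5 members were higher than the typical element and 7 were lower, against 32% and 28.1% of all elements, 60.1% in all. The median over the members was -0.27 and over all elements 0.04. NINJA_I lay at -2.28 ± 0.26 (adjusted p = 1.3e-04) and BATUMI_I at -1.47 ± 0.18. T412LTR reached 2.15 ± 0.19 (adjusted p = 5.9e-05), the second highest of the 203 elements. Copia_I and Copia_LTR lay at 0.62 ± 0.22 and 0.60 ± 0.22. No Pao row was called higher and no Copia row lower. With cluster-based factors 11 members were higher and 3 lower, against 63.1% and 8.87% of all elements. With total count scaling 2 were higher and 8 lower, against 30% and 28.6%.

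The study asked whether loss of Enok changes H3K23ac at transposons. By the test across all elements, no member had a changed ratio of H3K23ac to H3 at an adjusted p under 0.05, nor did any of the 203 elements (0%). At an unadjusted p under 0.05 edgeR gave 3 of the 24 members, T412LTR, NINJA_LTR and FROGGER_I, all with a positive value, against 14.3% of all elements and 9.36% with a positive value. DESeq2 called 1 member, T412LTR, against 2.46% of all elements. With a replicate block within each knockdown, which pairs libraries by number, edgeR called 8 members, against 32% of all elements. That fit leaves few residual degrees of freedom. Its p-values, here and below, lean on spread shared across elements and on a pairing that the study does not state. The replicates of the 2 knockdowns did not overlap for 15 members, 11 with enok_KD above and 4 below. Over all elements the share without overlap was 66.5%, with 37.9% above and 28.6% below. The median change was 0.14 over the members and 0.05 over all elements, or 0.08 for Pao and 0.21 for Copia rows.

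T412LTR had the largest positive value among the members and the second largest of all elements. In H3 its CPM (TMM-normalised counts at a common library size) was 442 and 468 in GFP_KD against 367 and 272 in enok_KD. In H3K23ac its CPM was 796 and 1035 in GFP_KD against 1445 and 1391 in enok_KD. Both antibodies thus separated the knockdowns without overlap, in opposite directions. The log2 change of the ratio was 1.14 ± 0.26 with an adjusted p of 0.129, short of the threshold in edgeR. DESeq2 gave 1.18 with an adjusted p of 0.0197. With a replicate block within each knockdown edgeR gave 1.16 (adjusted p = 6.4e-07). Without enok_KD replicate 1 edgeR gave 1.36 (adjusted p = 0.0103) and without enok_KD replicate 2 it gave 1.05 (adjusted p = 3.4e-05). Without GFP_KD replicate 1 it gave 1.00 (adjusted p = 0.758) and without GFP_KD replicate 2 it gave 1.30 (adjusted p = 0.988). The row DM412, by its name of the same element, had a change of 0.25 ± 0.19 (adjusted p = 0.520). By edgeR, H3 at DM412 changed by 0.32 ± 0.13 (adjusted p = 0.148), in the other direction from H3 at T412LTR. H3K23ac at DM412 changed by 0.57 ± 0.13 (adjusted p = 0.165), in the same direction as at T412LTR. The name DM412 does not say which part of the element the row holds, and the difference between these rows was not tested.

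NINJA_LTR gave a log2 change of 0.73 ± 0.24 (adjusted p = 0.229), from ratios of -1.09 and -1.21 in GFP_KD to -0.53 and -0.27 in enok_KD. The internal part, NINJA_I, gave 0.08 ± 0.35. FROGGER_LTR gave 1.11 ± 0.47 (adjusted p = 0.347) on 22 and 21 H3 counts in GFP_KD and 8 and 12 in enok_KD, with 11 and 7 and then 9 and 10 H3K23ac counts. None of these values passed the threshold in this fit, which has no replicate block, and FROGGER_LTR rests on very few counts. With a block within each knockdown NINJA_LTR passed (0.76, adjusted p = 0.037).

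At the other end stood both parts of Copia and DIVER_I. The log2 ratios of Copia_I were 1.13 and 1.51 in GFP_KD against 0.47 and 0.73 in enok_KD, a change of -0.70 ± 0.31 (adjusted p = 0.327). Copia_LTR gave -0.65 ± 0.31 (adjusted p = 0.347), and DIVER_I, the coding part of a Pao element, gave -0.35 ± 0.27 (adjusted p = 0.533). The replicates of both knockdowns lay apart in each of these elements, but no change was called in this fit. With a replicate block within each knockdown edgeR called Copia_I (-0.72, adjusted p = 3.1e-07), Copia_LTR (-0.66, adjusted p = 0.0092) and DIVER_I (-0.35, adjusted p = 0.0227). Without a block, the value for BATUMI_I was 0.37 ± 0.25, for BATUMI_LTR 0.20 ± 0.26, for ROOA_I 0.08 ± 0.19, for ROOA_LTR 0.16 ± 0.19 and for TRAM_I 0.61 ± 0.77. All of these had an adjusted p of 0.468 or more. Of these, the block fit called BATUMI_I (0.38, adjusted p = 0.0135).

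Without enok_KD replicate 1 edgeR called 4 members for the ratio (2 higher and 2 lower), against 18.7% of all elements. Without enok_KD replicate 2 it called 9 (7 higher and 2 lower), against 38.4%. Without GFP_KD replicate 1 or 2 it called 0. In the fits without an enok_KD replicate, the remaining enok_KD library of each antibody is assumed to vary like the GFP_KD libraries, whose replicates lay closer together. In the fits without a GFP_KD replicate, the remaining GFP_KD library is assumed to vary like the enok_KD libraries, whose replicates lay further apart. The members' shares lay near those of all elements.

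**Figure D3:**
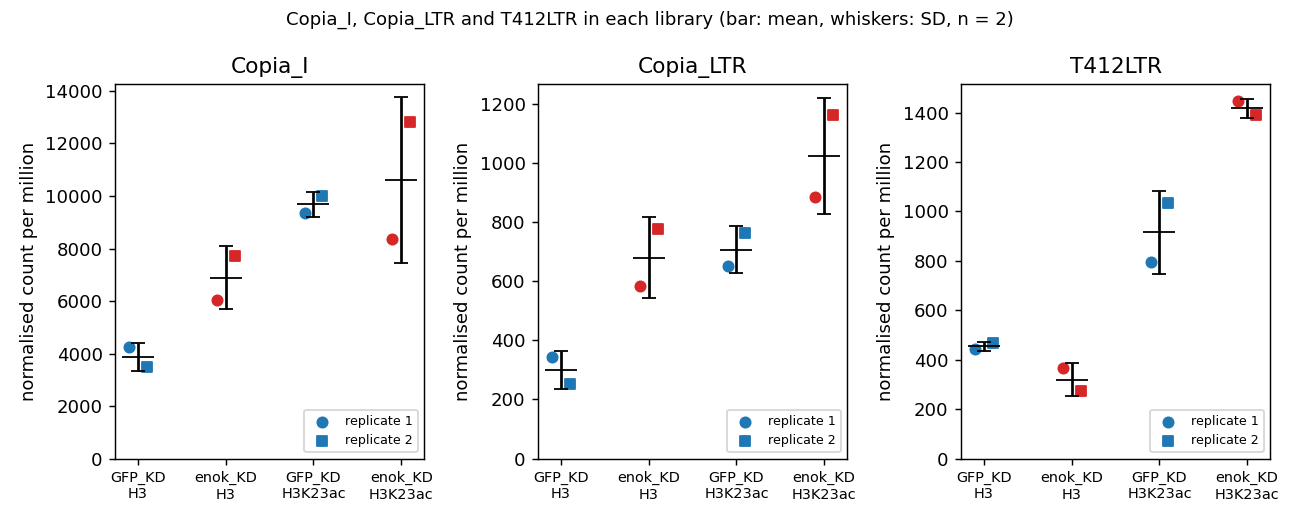
TMM-normalised CPM (y axis, linear and starting at 0) of Copia_I, Copia_LTR and T412LTR in each of the 8 libraries, by knockdown and antibody (x axis). Points are replicates, the short line is the mean and the whiskers are the SD (n = 2). For T412LTR the enok_KD points lie below GFP_KD in H3 and above it in H3K23ac, and for both parts of Copia the enok_KD points lie above GFP_KD in H3.

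For H3 alone, Copia_LTR was the 1 member called by edgeR. It rose by a log2 fold change of 1.19 ± 0.22 (adjusted p = 0.0341), where 2.46% of all elements were called. Its H3 CPM was 344 and 253 in GFP_KD against 583 and 777 in enok_KD, so the knockdowns did not overlap. For Copia_I it was 4260 and 3505 in GFP_KD against 6045 and 7732 in enok_KD, a log2 fold change of 0.83 ± 0.22 that did not pass in edgeR (adjusted p = 0.0895) but did in DESeq2 (0.74, adjusted p = 0.0291) and in limma's voom (0.82, adjusted p = 0.0085). The H3K23ac CPM of Copia_I, 9339 and 10014 in GFP_KD against 8356 and 12826 in enok_KD, overlapped. That of Copia_LTR was 651 and 763 in GFP_KD against 883 and 1161 in enok_KD, so that enok_KD lay above in both antibodies.

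The call on Copia_LTR held in DESeq2 (adjusted p = 8.3e-04), in voom (0.0034), with total count scaling (0.0306) and with a replicate block shared by the knockdowns (0.0217). It was missed in edgeR with DESeq2's size factors (adjusted p = 0.0541), with cluster-based factors (0.0573) and with a minimum mean of 100 counts (0.0675). The log2 fold change was 1.42 without GFP_KD replicate 1 and 0.98 without GFP_KD replicate 2. It was 1.39 without enok_KD replicate 1 and 0.89 without enok_KD replicate 2. Each of these fits leaves 1 library of a group and takes the spread from the other knockdown. Whether they keep the call therefore says little about how firm it is. An exact permutation test of 2 libraries against 2 cannot give a p below 0.333, so the test rests on the spread shared across elements. The number of copies of an element and the H3 on each copy cannot be told apart in these counts, as the 4 libraries of input chromatin were not analysed here.

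No other member was called for H3 by edgeR. DESeq2 called 4 members, Copia_LTR, Copia_I, FROGGER_I (-0.47) and ROOA_I (-0.46), against 12.8% of all elements, and voom called both parts of Copia, against 11.3%. At an unadjusted p under 0.05 there were 8 of 24, 2 with a positive and 6 with a negative value, against 28.6% of all elements (17.2% positive and 11.3% negative). The negative ones included T412LTR, at -0.51 ± 0.19 (adjusted p = 0.133), and both parts of ROOA, ROOA_I at -0.36 ± 0.13 and ROOA_LTR at -0.32 ± 0.13. The knockdowns did not overlap for 13 members, 4 above and 9 below. Over all elements this share was 66%, with 37.4% above and 28.6% below. The median was -0.11 over the members and 0.03 over all elements. Without enok_KD replicate 1 edgeR called 11 members, 2 of them higher, against 53.7% of all elements, and without enok_KD replicate 2 it called 11, 5 of them higher, against 42.4%. With total count scaling it called 8, 1 of them higher, against 23.6% of all elements (2.96% higher), and the median of all elements moved to -0.17.

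For H3K23ac alone, no member changed by edgeR's test, nor did any of the 203 elements (0%). DESeq2 called 1 member, DIVER_I, at -0.74 with an adjusted p of 0.0185, against 1.97% of all elements. At an unadjusted p under 0.05 edgeR gave 5 members, 4 positive and 1 negative, against 15.8% of all elements (13.3% positive and 2.46% negative). The knockdowns did not overlap for 11 members, 7 above and 4 below. Over all elements this share was 44.8%, with 31% above and 13.8% below. DIVER_I was the negative one, at -0.68 ± 0.19 (adjusted p = 0.165), with a CPM of 6875 and 6339 in GFP_KD against 4845 and 3397 in enok_KD. The positive ones were T412LTR at 0.63 ± 0.18 (adjusted p = 0.165), MAX_LTR at 0.64 ± 0.25, Copia_LTR at 0.54 ± 0.22 and BATUMI_I at 0.46 ± 0.18. Without enok_KD replicate 1 edgeR called 6 members, 4 of them higher, against 28.6% of all elements, and without enok_KD replicate 2 it called 11, 7 of them higher, against 38.9%. Without either GFP_KD replicate it called 0.

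**Figure D4:**
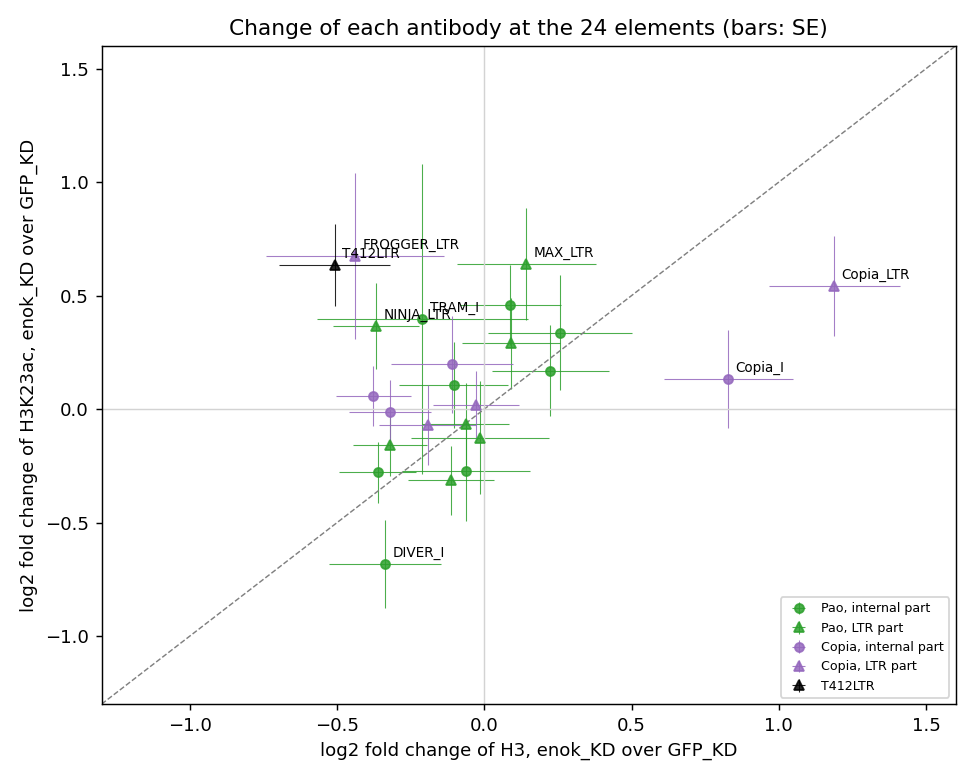
Fitted log2 fold change of H3 (x axis) and of H3K23ac (y axis), enok_KD over GFP_KD, for the 24 elements, with bars of 1 SE on each side. Colours mark the superfamily and shapes the part, and the dashed line marks equal change of both. Copia_LTR lies furthest right at 1.19 in H3, T412LTR lies at -0.51 in H3 and 0.63 in H3K23ac, and DIVER_I lies lowest at -0.68 in H3K23ac.

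Set against one another, Pao elements outnumbered Copia elements in H3 reads more than in H3K23ac reads, by a gap that was smaller without the Copia family. The log2 ratio of summed Pao to summed Copia counts was 2.24 and 2.36 in the GFP_KD H3 replicates and 1.16 and 1.07 in H3K23ac. In enok_KD it was 2.43 and 1.99 in H3 and 1.30 and 0.64 in H3K23ac. The change of the H3K23ac value relative to H3, enok_KD minus GFP_KD, was -0.055, less than the difference between the enok_KD replicates. Without the Copia family the change was -0.38, since Copia_I and Copia_LTR took 27.4% and 24.4% of the Copia superfamily H3 reads in GFP_KD and 38.3% and 47.8% in enok_KD. In H3K23ac their share was 52.8% and 55.9% in GFP_KD against 47.6% and 63.6% in enok_KD. Without the Copia family the log2 ratios of Pao to Copia counts in GFP_KD were 2.70 and 2.76 in H3 and 2.24 and 2.25 in H3K23ac. In enok_KD they were 3.12 and 2.93 in H3 and 2.23 and 2.10 in H3K23ac. The knockdowns thus did not overlap without the Copia family, with enok_KD above in H3 and below in H3K23ac, there only by 2.23 against 2.24. Leaving out this family was chosen after seeing the data, and the change was not tested.

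The enok_KD replicates differed from one another more than those of GFP_KD did. The median difference between replicates, without sign, was 0.05 on the log2 scale for H3 and 0.08 for H3K23ac in GFP_KD, but 0.36 and 0.37 in enok_KD. Over all elements the GFP_KD medians were 0.09 and 0.08, and those of enok_KD 0.30 and 0.35. In enok_KD, 6 of the 8 Pao internal parts were higher in replicate 1 than in replicate 2, in H3 and again in H3K23ac. So were 3 of the 4 Copia internal parts, whereas Copia_I and Copia_LTR were higher in replicate 2 with both antibodies. Over all 203 elements in enok_KD, 97 were higher in replicate 1 in H3 and 115 in H3K23ac. The part of this spread between the enok_KD replicates in the changes given above was not tested.

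**Figure D5:**
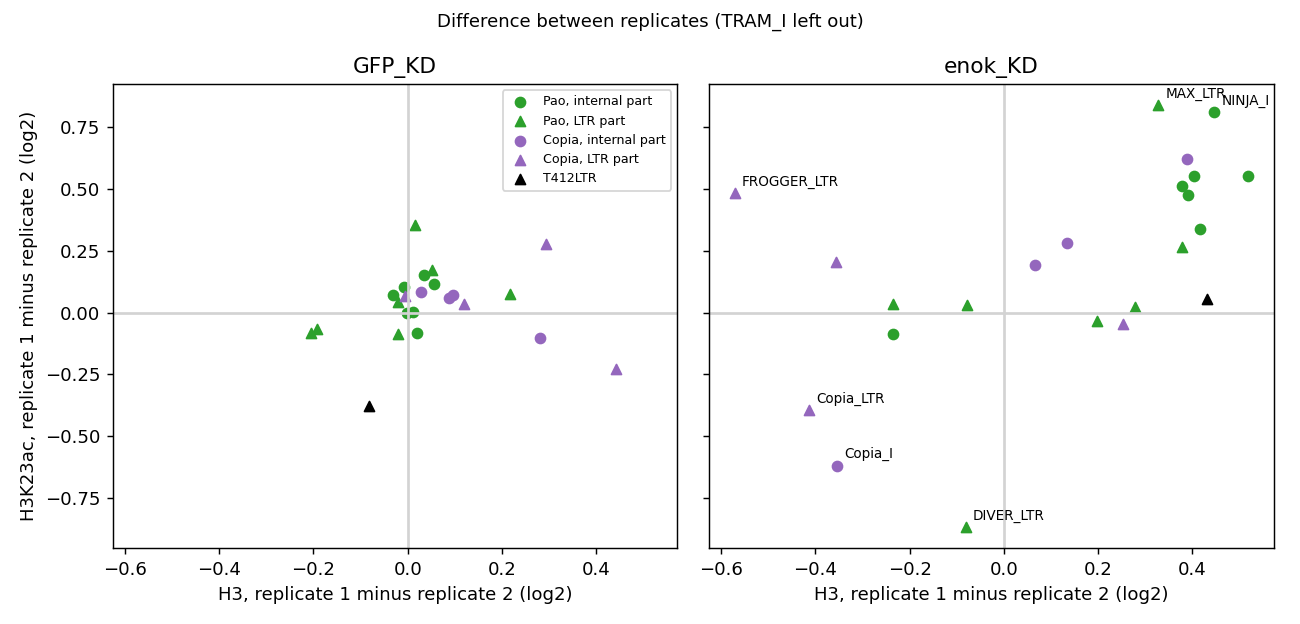
Log2 difference between replicate 1 and replicate 2 in H3 (x axis) and in H3K23ac (y axis), for GFP_KD on the left and enok_KD on the right. Each point is 1 element, TRAM_I being left out for its few counts. In GFP_KD most points lie near 0, while in enok_KD most Pao internal parts lie in the upper right and Copia_I and Copia_LTR in the lower left.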

How the data were processed

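The authors aligned single-end ChIP-seq reads to the dm3 genome with Bowtie2 2.2.1, without mismatches and keeping unique mappers, after Trimmomatic, and per the labels used bedtools. They deposited unnormalised read counts per transposon element and per piRNA cluster. The authors' own fold changes and p-values, from DESeq2, were not used.

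Elements with a mean of at least 10 counts were fitted in edgeR 4.0.16 (R 4.3.3) with TMM factors and 4 group means over the 8 libraries, and p-values were adjusted by Benjamini and Hochberg over all 203 elements. Each ± is an SE taken from the fitted value and its F statistic. It uses a spread estimated over all 8 libraries and shared across elements, so it is not the SE of the replicates of a single group. Log2 ratios per replicate take the H3K23ac and H3 library of the same number, after an offset of 0.5 counts, a match that the study does not state. Named elements were those called in a change, the 3 highest and 3 lowest of the ratio change and of the GFP_KD ratio, and both parts of BATUMI, Copia and ROOA. Other elements are given in counts and ranges, and any single value of another element was chosen after its value was seen. Members, lists and tests were chosen with earlier results of these data known. The replicates are called independent by the authors without stating their source, so p-values measure the spread between these libraries. Alternatives used limma 3.58.1, DESeq2 1.42.0, other scaling, count minimums, replicate blocks and leaving out replicates. The fit was run on simulated data with the same spread in all libraries. The enok_KD replicates here lay further apart than those of GFP_KD, so that run gives no support for the calls above. Levels were not compared between elements, since no lengths are given.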

Additional observations from a re-analysis of the deposited data

Results flagged for a closer look

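FROGGER_LTR, the LTR of a Copia superfamily element, lay on opposite sides of the typical element in the knockdowns. Its log2 ratio of H3K23ac to H3 was -0.35 and -0.33 in the GFP_KD replicates and 1.34 and 0.29 in the enok_KD replicates, a mean of 0.82 in enok_KD. By edgeR it was called off the typical element in neither knockdown. The fitted ratio was -0.36 ± 0.31 in GFP_KD (adjusted p = 0.403) and 0.75 ± 0.36 in enok_KD (adjusted p = 0.154). The change of the ratio was not called (1.11 ± 0.47, adjusted p = 0.347), each library held 7 to 22 counts, and with factors from the cluster tables its GFP_KD ratio was 0.42.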

How the results depend on the processing

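Members with a changed ratio numbered 0 with TMM, 1 in DESeq2 and 0 to 9 without 1 replicate (0% to 38.4% of all elements). Members with changed H3 numbered 1 with TMM, 0 with DESeq2 size factors (0.985% of all elements), cluster table factors (1.48%) or a minimum of 100 counts (0%), 8 with total count scaling (23.6%), 4 in DESeq2 (12.8%), 2 with limma's voom (11.3%) and 0 to 11 without 1 replicate (0% to 53.7%). For H3K23ac they numbered 0 with TMM, 1 in DESeq2 and 0 to 11 without 1 replicate (0% to 38.9%). For the ratio in GFP_KD and in enok_KD, leaving out 1 replicate gave 6 to 21 members (31% to 85.7% of all elements) and 8 to 16 members (48.3% to 69%). The change of summed Pao over Copia was -0.37 without MAX_I and Copia_I, and -0.38 without the Copia family, which was chosen after seeing the data. The median Pao minus Copia ratio in GFP_KD was -0.88, or -1.02 with a minimum of 100 counts. Without 1 replicate it was -0.89 to -0.84, and the internal minus LTR medians were -0.17 to 0.029 for the change and -0.64 to -0.58 in GFP_KD.

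Libraries of both antibodies with the same number deviated together in enok_KD (r = 0.70 over 203 elements) but not in GFP_KD (r = -0.02). The GFP_KD replicates differed by a median of 0.09 in H3 and 0.08 in H3K23ac, and those of enok_KD by 0.30 and 0.35. The chi-square per degree of freedom between replicates was 5.52 and 2.72 in GFP_KD, beyond counting noise, and 49.6 and 38.7 in enok_KD. Between the knockdowns, r of these deviations was -0.485 for H3 and 0.142 for H3K23ac. Whether the numbers pair the libraries was not tested. The study does not state that the numbers pair the samples. The fit without a block counts a deviation shared by both antibodies as spread between replicates. With a replicate block within each knockdown 8 members had a changed ratio, against 32% of all elements. The 5 higher were T412LTR, NINJA_LTR, MAX_LTR, FROGGER_I and BATUMI_I, and the 3 lower were Copia_I, Copia_LTR and DIVER_I. With a block shared by the knockdowns 0 members had a changed ratio. A shared block with the enok_KD numbers crossed, chosen after seeing the data, called 1 member for the ratio (5.91% of all elements), 3 for H3 (16.3%) and 2 for H3K23ac (4.93%).

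Several values changed sign. DIVER_I in the GFP_KD ratio was 0.0046 with TMM, -0.057 with DESeq2 size factors and in DESeq2, -0.075 with total count scaling, -0.012 with no minimum and -0.051 with a minimum of 100. ROOA_LTR, in the same order, was 0.023, -0.040, -0.040 and -0.057, and -0.034 with a minimum of 100. With cluster table factors the GFP_KD ratio was 0.42 for FROGGER_LTR and 0.14 for ROOA_I, which TMM put at -0.65 and called lower. The change in H3 with DESeq2 size factors was -3.456e-04 (-3.449e-04 in DESeq2) for BATUMI_I and -3.512e-04 for BATUMI_LTR, and with total count scaling -0.13 and -0.12. The change in H3K23ac of Copia_I was -0.020 with total count scaling. Without 1 replicate the GFP_KD ratio ranged from -0.069 to 0.034 for DIVER_I and from -0.056 to 0.057 for ROOA_LTR. The ratio change of NINJA_I ranged from -0.14 to 0.30, the H3 change from -0.14 to 0.20 for BATUMI_I and from -0.11 to 0.19 for BATUMI_LTR. The H3K23ac change ranged from -0.22 to 0.41 for Copia_I, from -0.12 to 0.68 for NINJA_I and from -0.24 to 2.11 for TRAM_I. Both ends of the Copia_I range passed the threshold, as did the upper ends for NINJA_I in H3K23ac and BATUMI_I in H3. The cause of these moves was not tested. With 2 replicates a group and as few as 1 count in a library for TRAM_I, depth limits what can be said of rows with few counts.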
